A study of Mus musculus with 12 samples.

Results

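Hnf4a, Cebpa, Cebpb, Foxa1, Foxa2, Foxa3, Onecut1, Nr5a2 and Prox1 are 9 genes for transcription factors that hepatocytes use to hold their identity. They were taken by name among the array's probe sets that carry a single gene symbol, and each gene was read from the probe set with the highest mean over the 12 arrays. All 9 passed the filter on dim probe sets. They are 9 of the 12760 genes tested, out of 18193 with a single-symbol probe set.

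Liver RNA of 12 BALB/c mice, 1 mouse per array, was measured on a one-colour oligonucleotide array. The labels form 4 groups of 3 mice. IFNko TGFB1 KO mice lack both transforming growth factor beta 1 (Tgfb1) and interferon gamma (Ifng), TGFB KO mice lack Tgfb1 alone, INFko TGFB+ mice lack Ifng and keep Tgfb1, and wild type mice keep both. The labels write INFko for the one Ifng-deficient group and IFNko for the other, and do not say whether INFko TGFB+ mice carry 1 or both intact copies of Tgfb1. No cell type driver is named for either deletion, and ages are not given. TGF-beta 1 restrains lymphocyte activation, and mice without it develop inflammation in many organs, the liver among them. In a whole-liver sample, fewer cells of a type and less RNA per cell cannot be told apart.

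Hepatocyte genes are read by a network of transcription factors that bind each other's promoters as well as those of their targets. FOXA proteins are pioneer factors that open chromatin in early liver, HNF4A is a nuclear receptor needed for the mature epithelial and metabolic programme, and the C/EBP proteins are leucine zipper factors of which C/EBP alpha drives metabolic genes in the quiescent liver and C/EBP beta the acute phase and regenerative responses. ONECUT1 (also called HNF6), NR5A2 (LRH-1) and PROX1 shape hepatobiliary development, bile acid and cholesterol genes, and hepatoblast growth.

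Upstream sequences are shown for 4 of the genes: Foxa2, which had the largest log2 fold change of the 9 in both Tgfb1 comparisons, Hnf4a, and the pair Cebpa and Cebpb, which changed in opposite directions. They are the RefSeq reference of GRCm38.p6, not read from these BALB/c mice, run 5′ to 3′ on the strand of the gene, and stop where the annotated gene begins. Capitals mark matches, on either strand, to the motifs listed after them. The Foxa2 stretch lies on the minus strand at chr2:148046970-148047219, the Hnf4a stretch on the plus strand at chr2:163506607-163506810, the Cebpa stretch on the plus strand at chr7:35119043-35119292 and the Cebpb stretch on the plus strand at chr2:167688665-167688914.
Foxa2: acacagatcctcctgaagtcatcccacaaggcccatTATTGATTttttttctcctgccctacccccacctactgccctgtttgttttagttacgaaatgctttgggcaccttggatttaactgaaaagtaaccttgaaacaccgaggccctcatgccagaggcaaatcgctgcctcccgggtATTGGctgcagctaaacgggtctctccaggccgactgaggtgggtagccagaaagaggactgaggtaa
Hnf4a: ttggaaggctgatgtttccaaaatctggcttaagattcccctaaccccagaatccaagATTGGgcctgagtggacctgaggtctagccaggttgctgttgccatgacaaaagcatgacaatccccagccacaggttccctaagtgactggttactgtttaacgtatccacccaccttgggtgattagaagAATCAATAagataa
Cebpa: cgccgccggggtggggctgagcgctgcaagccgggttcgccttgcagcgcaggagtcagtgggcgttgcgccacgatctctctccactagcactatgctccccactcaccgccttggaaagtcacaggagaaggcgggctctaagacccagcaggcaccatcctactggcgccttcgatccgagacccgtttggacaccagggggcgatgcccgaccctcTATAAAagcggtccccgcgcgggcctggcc
Cebpb: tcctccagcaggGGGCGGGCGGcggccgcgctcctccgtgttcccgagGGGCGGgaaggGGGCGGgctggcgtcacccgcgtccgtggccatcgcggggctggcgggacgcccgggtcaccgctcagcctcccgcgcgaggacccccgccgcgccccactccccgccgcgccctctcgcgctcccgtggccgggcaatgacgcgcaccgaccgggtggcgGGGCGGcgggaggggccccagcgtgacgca

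Both strands of the 250 bases before each of the 14 annotated starts of the 9 genes were searched for fixed letters, and the same search over 32851 promoters gave the background. The HNF6 letters TATTGATT were held by 0.718% of all promoters. They matched before the first start of Foxa2 (214 to 207 bases upstream) and before the first start of Hnf4a (60 to 53 bases upstream). They were absent from the windows of every other annotated start of Foxa2 and Hnf4a. The first start of Hnf4a, from which its bases were counted, lies inside the annotated gene, past the end of the printed stretch. Which of the annotated starts these livers use was not tested. The TATA box letters TATAAA (12.4% of promoters) lay on the strand of the gene 30 to 25 bases before Cebpa and 36 to 31 before Foxa3. On the opposite strand they lay 34 to 29 bases before the first start of Prox1. They also matched on the opposite strand further away, 181 to 176 bases before the first start of Nr5a2 and 208 to 203 before the third of Foxa2. The Cebpb window, 81.6% G and C, held 5 matches to the GC box GGGCGG (32.7% of promoters), of which the first 2 overlap. The CCAAT box CCAAT (33.8% of promoters) matched in the printed Foxa2 and Hnf4a stretches. The FOXA letters TGTTTAC (3.17%) matched before Foxa1, the C/EBP letters TTGCNNAA (9.56%) before the second start of Nr5a2 and the E-box CACGTG (6.02%) before Onecut1. The interferon-gamma activated element TTCNNNGAA (7.02%), the cyclic AMP element TGACGTCA (1.55%), the NF-kappa-B motif (1.41%) and the HNF4 letters CAAAGTCCA (0.384%) were in none of the 14 windows. A match describes letters and no binding was measured.

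The signal is a linear brightness, scaled by the submitters so that each array has the same trimmed mean. The array IFNko TGFB1 KO 1 stood apart: its median signal was 61.3, against 33.8 to 42.6 on the other 11, and its rank correlations with them were 0.754 to 0.809, against 0.816 to 0.912 among those 11. Tgfb1 averaged 40.2 ± 13.9 in IFNko TGFB1 KO and 188 ± 29.5 in INFko TGFB+ livers, and 68.1 ± 21.2 in TGFB KO and 319 ± 184 in wild type livers (SD, n = 3 each), and it fell in both comparisons (adjusted p = 0.00557 and 0.0105, limma). Ifng averaged 60.9 ± 20.5 in IFNko TGFB1 KO and 5.36 ± 3.72 in INFko TGFB+ livers, and 127 ± 64.5 in TGFB KO and 18.4 ± 10.8 in wild type livers. It rose in IFNko TGFB1 KO against INFko TGFB+ by 1.63 ± 0.30 on the log2 scale (adjusted p = 0.00243), and the livers labelled IFNko TGFB1 KO, at 44.6 to 83.9, all lay above the wild type livers, at 5.95 to 25.9, which goes against that label. Where this probe set lies on the deleted gene is not stated, so IFNko TGFB1 KO is used throughout as the name of the libraries labelled so. The array INFko TGFB+ 2 carried signal of exocrine pancreas genes: Ctrb1, Prss2, Cel, Cpa1 and Cela2a, picked after their values were seen, summed to 3610 there and to 68 to 385 on the other 11 arrays. Each group holds 1 female by Xist and Eif2s3y.

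Loss of Tgfb1 went with lower signal for most of the 9 factors and higher signal for Cebpb. In TGFB KO against wild type livers, Cebpb rose and Cebpa, Foxa2, Foxa3 and Prox1 fell, so 5 of 9 passed an adjusted p of 0.05, where 24.1% of all genes did. In IFNko TGFB1 KO against INFko TGFB+ livers, Cebpb rose and 7 factors fell, so 8 of 9 passed, where 25.8% of all genes did. Onecut1 was the factor that missed. The median log2 fold change of the 9 was -0.76 in TGFB KO against wild type, beside -0.06 over all genes, and -1.02 in IFNko TGFB1 KO against INFko TGFB+, beside -0.01. The first comparison gave 3 of 9 without wild type 1, wild type 2, TGFB KO 2 or TGFB KO 3, and the second gave 6 without any one INFko TGFB+ array or IFNko TGFB1 KO 2, 7 without IFNko TGFB1 KO 1 and 9 without IFNko TGFB1 KO 3. Fold changes are on the log2(signal + 16) scale and understate those of dim genes.

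**Figure D1:**
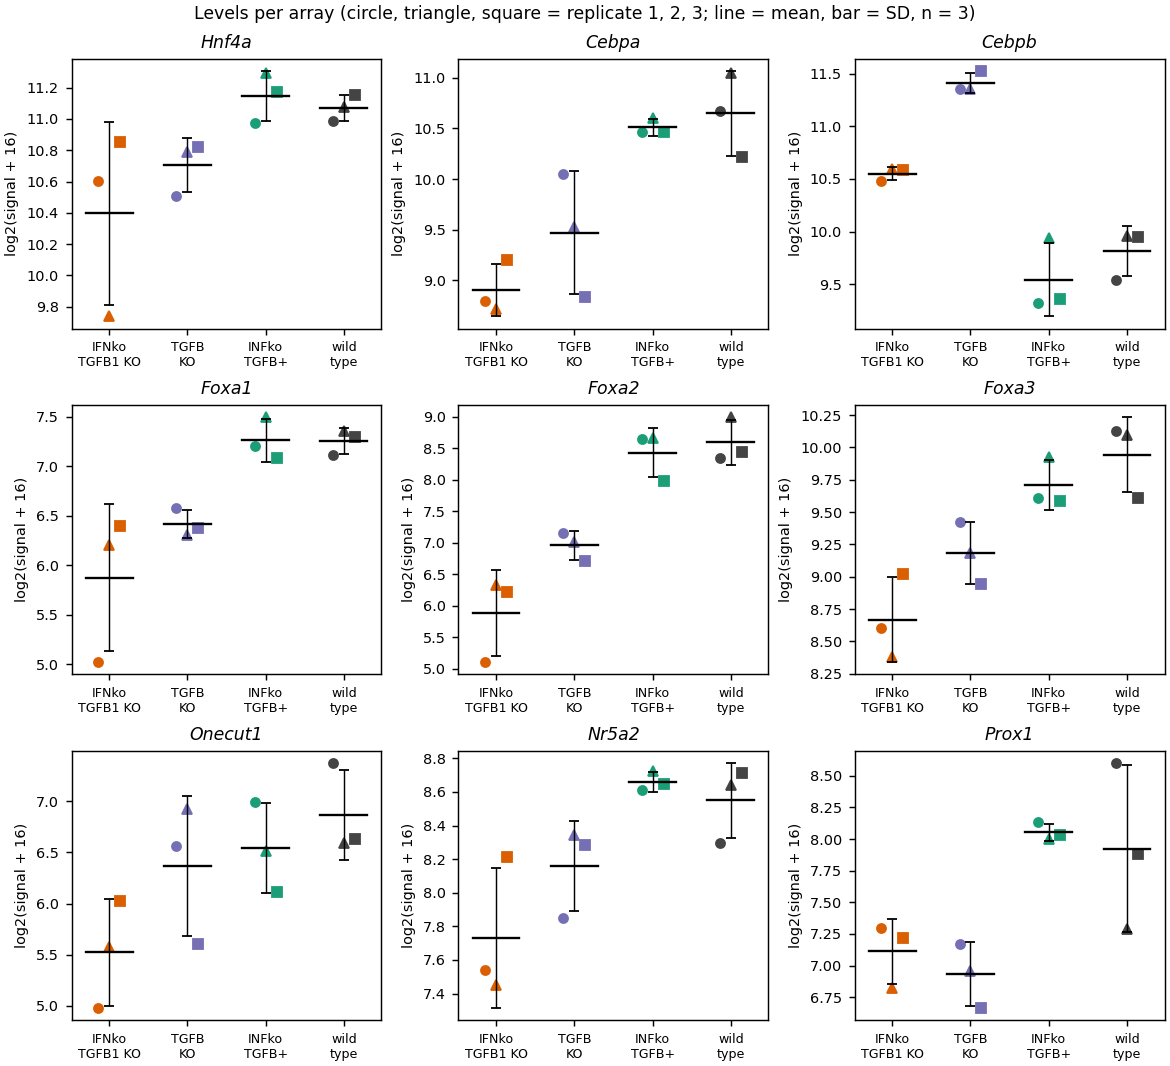
Level of each of the 9 factors on each array, as quantile normalized log2(signal + 16) on the vertical axis, for the 4 groups. Circle, triangle and square are replicates 1, 2 and 3, lines are means and bars are SD (n = 3). The arrays of INFko TGFB+ and wild type overlap for every factor, and Cebpb is the factor whose Tgfb1-deficient groups lie above.

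**Figure D2:**
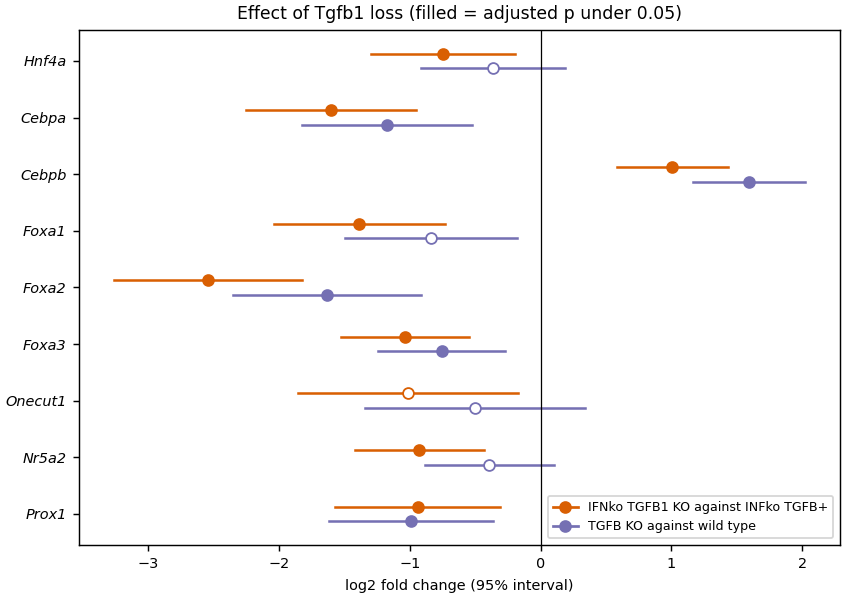
Log2 fold change of each factor with its 95% interval, for IFNko TGFB1 KO against INFko TGFB+ and for TGFB KO against wild type. Filled points have an adjusted p under 0.05. Foxa2 lies furthest to the left in both comparisons, at -2.54 and -1.63, and Cebpb lies to the right of 0 in both.

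Among the pioneer factors, Foxa2, a forkhead factor of liver and pancreas that also takes part in fasting metabolism, fell most. Its signal was 128, 114 and 86.8 in the 3 TGFB KO livers, against 304, 493 and 327 in the 3 wild type livers. It was 28.2, 69.5 and 57.5 in the 3 IFNko TGFB1 KO livers, against 382, 389 and 227 in the 3 INFko TGFB+ livers. Neither pair of groups overlaps. The log2 fold change was -1.63 ± 0.33 (SE) in TGFB KO against wild type (adjusted p = 0.00411) and -2.54 ± 0.33 in IFNko TGFB1 KO against INFko TGFB+ (adjusted p = 0.000336), or 3.1-fold and 5.83-fold lower. Without the array IFNko TGFB1 KO 1, the lowest of the 12 for Foxa2, the second value was -2.16 (adjusted p = 0.000582).

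Foxa1, its closest relative, was dim on all arrays. It had a signal of 77.8, 59.7 and 64.2 in TGFB KO livers, against 119, 139 and 133 in wild type livers. It had, in IFNko TGFB1 KO livers, 24.8, 61.03 and 68.3, against 126, 159 and 113 in INFko TGFB+ livers. No array of a Tgfb1-deficient group reached the lowest array of its comparison group. Foxa1 fell in IFNko TGFB1 KO against INFko TGFB+ by 1.39 ± 0.30 on the log2 scale (adjusted p = 0.00592), and by 0.96 without IFNko TGFB1 KO 1 (adjusted p = 0.00467). In TGFB KO against wild type its log2 fold change was -0.84 ± 0.30 and missed the threshold (adjusted p = 0.0643), passing in 8 of 26 alternative settings.

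Foxa3, the FOXA gene most used in adult liver, had a signal of 682, 580 and 482 in TGFB KO livers, against 1095, 1121 and 781 in wild type livers. It read 353, 334 and 508 in IFNko TGFB1 KO livers, against 778, 985 and 775 in INFko TGFB+ livers. Here too neither pair of groups overlaps, and wild type 3 and TGFB KO 1 come nearest to each other. Foxa3 changed by -0.76 ± 0.22 in TGFB KO against wild type (adjusted p = 0.0289) and by -1.04 ± 0.22 in IFNko TGFB1 KO against INFko TGFB+ (adjusted p = 0.00564). The first call was lost without wild type 1, wild type 2, TGFB KO 2 or TGFB KO 3 and under median centring (highest adjusted p = 0.108), and the second passed in all 26 alternatives.

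The C/EBP pair moved apart. Cebpa, the metabolic member, had a signal of 1042, 727 and 450 in TGFB KO livers, against 1594, 2230 and 1236 in wild type livers. Cebpa was, in IFNko TGFB1 KO livers, 398, 421 and 577, against 1456, 1627 and 1465 in INFko TGFB+ livers. Every Tgfb1-deficient liver lay below every liver of the other groups, and TGFB KO 1 came nearest to them. The log2 fold change was -1.18 ± 0.30 (adjusted p = 0.0138) in TGFB KO against wild type and -1.60 ± 0.30 (adjusted p = 0.00255) in IFNko TGFB1 KO against INFko TGFB+, or 2.26-fold and 3.04-fold lower. Without wild type 2, its brightest array, the first missed the threshold (adjusted p = 0.0566).

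Cebpb, the inflammatory member, had a signal of 2574, 2517 and 2985 in TGFB KO livers, against 728, 1002 and 1004 in wild type livers. It had 1192, 1421 and 1509 in IFNko TGFB1 KO livers, against 631, 995 and 655 in INFko TGFB+ livers. TGFB KO livers were the highest, IFNko TGFB1 KO livers stood in between, and the other groups were low and overlapped. Cebpb rose by 1.60 ± 0.20 (adjusted p = 0.000173) in TGFB KO against wild type, a 3.02-fold change, and by 1.01 ± 0.20 (adjusted p = 0.00326) in IFNko TGFB1 KO against INFko TGFB+, a 2.01-fold change. Median centring lowers the median of all genes to -0.15 in the second comparison, and there the Cebpb value was 0.62 (adjusted p = 0.151).

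**Figure D3:**
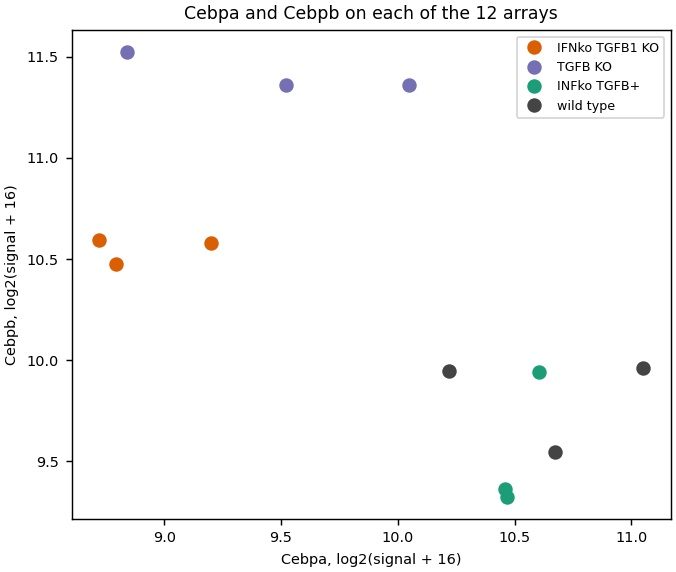
Cebpb against Cebpa on each of the 12 arrays, both as quantile normalized log2(signal + 16), coloured by group. IFNko TGFB1 KO and TGFB KO livers lie to the left of and above the INFko TGFB+ and wild type livers, and TGFB KO livers lie highest.

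Hnf4a, the nuclear receptor at the centre of the network, had the smallest change of the 8 factors called in IFNko TGFB1 KO against INFko TGFB+. Its signal was 1436, 1742 and 1818 in TGFB KO livers, against 2040, 2261 and 2390 in wild type livers. It was 1301, 826 and 1841 in IFNko TGFB1 KO livers, against 2104, 2632 and 2439 in INFko TGFB+ livers. On this probe set all 6 Tgfb1-deficient livers lay below the 6 others, with IFNko TGFB1 KO 2 the lowest. TGFB KO and wild type livers overlapped on each of the other Hnf4a probe sets. The change of the gene in TGFB KO against wild type was -0.37 ± 0.25 (adjusted p = 0.33, 95% interval -0.92 to 0.18). In IFNko TGFB1 KO against INFko TGFB+ it was -0.75 ± 0.25 (adjusted p = 0.0476), a call that only 8 of 26 alternatives kept (adjusted p between 0.0105 and 0.146). Among the settings that lost it were those without IFNko TGFB1 KO 1, without IFNko TGFB1 KO 2 and without each wild type, TGFB KO or INFko TGFB+ array.

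Of the hepatobiliary factors, Onecut1, a cut-homeodomain protein, was near the dim end. Its signal was 77.2, 106 and 30.0 in TGFB KO livers, against 147, 74.3 and 77.7 in wild type livers. It was 23.4, 29.8 and 47.8 in IFNko TGFB1 KO livers, against 107, 70.3 and 49.4 in INFko TGFB+ livers. The first pair of groups overlaps and the second is parted by a narrow gap, although it overlaps on the other Onecut1 probe set. Its log2 fold changes were -0.50 ± 0.38 (adjusted p = 0.388) and -1.02 ± 0.38 (adjusted p = 0.0743), and the second passed in 3 of 26 alternatives.

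Nr5a2, an orphan nuclear receptor for bile acid and cholesterol genes, had a signal of 221, 316 and 299 in TGFB KO livers, against 293, 378 and 402 in wild type livers. Nr5a2 had 185, 175 and 281 in IFNko TGFB1 KO livers, against 371, 408 and 384 in INFko TGFB+ livers. TGFB KO and wild type overlap, and the Ifng-deficient pair does not, although it does on the other Nr5a2 probe sets. Nr5a2 changed by -0.39 ± 0.23 in TGFB KO against wild type (adjusted p = 0.243) and fell by 0.93 ± 0.23 in IFNko TGFB1 KO against INFko TGFB+ (adjusted p = 0.0108). With the mean of all its probe sets the second value missed the threshold (adjusted p = 0.0856).

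Prox1, a homeobox factor and corepressor of other liver factors, had a signal of 129, 109 and 83.6 in TGFB KO livers, against 368, 132 and 211 in wild type livers. It had 161, 108 and 134 in IFNko TGFB1 KO livers, against 259, 235 and 238 in INFko TGFB+ livers. Wild type spanned the widest range, and its lowest array, wild type 2, was just above the TGFB KO livers. Prox1 fell by 0.99 ± 0.29 (adjusted p = 0.0271) and by 0.94 ± 0.29 (adjusted p = 0.0315). The first call passed in 20 of 26 alternatives. It was lost without wild type 1, wild type 3, TGFB KO 2 or TGFB KO 3, with only the groups compared and with an ordinary t statistic. The second passed in 19 of 26. It was lost without any one of the INFko TGFB+ arrays or without IFNko TGFB1 KO 2. Deposited scaling, no filter and an ordinary t statistic also lost it.

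The 9 genes have 19 single-symbol probe sets, 18 of them above the filter, and these were also tested one by one among 22941 probe sets. In TGFB KO against wild type 2 rose and 6 fell, and in IFNko TGFB1 KO against INFko TGFB+ 2 rose and 9 fell. Of all probe sets tested, 9.29% rose and 8.51% fell in the first comparison, and 9.11% rose and 9.92% fell in the second. Both Cebpb probe sets rose in each comparison, the second by 1.68 ± 0.26 (adjusted p = 0.00112) and 1.04 ± 0.26 (adjusted p = 0.0163). All 3 Prox1 probe sets fell in each comparison, the deepest by 1.69 ± 0.27 in IFNko TGFB1 KO against INFko TGFB+ (adjusted p = 0.00167). The 4 Hnf4a probe sets had negative log2 fold changes, between -0.33 and -0.73 in TGFB KO against wild type and between -0.72 and -1.004 in IFNko TGFB1 KO against INFko TGFB+, and at this level none passed (adjusted p between 0.0636 and 0.171 in the second). The second Onecut1 probe set fell in IFNko TGFB1 KO against INFko TGFB+ by 1.17 ± 0.36 (adjusted p = 0.0398), while the other 2 Nr5a2 probe sets above the filter had -0.65 and -0.19 and did not pass. In that comparison the Onecut1 probe sets had similar values, -1.02 and -1.17, on either side of the threshold, while those of Nr5a2 ran from -0.93 to -0.19. Antisense genes overlap Hnf4a (Hnf4aos) and the start of Prox1 (Prox1os) in RefSeq, and the positions of the probes relative to them are not stated.

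**Figure D4:**
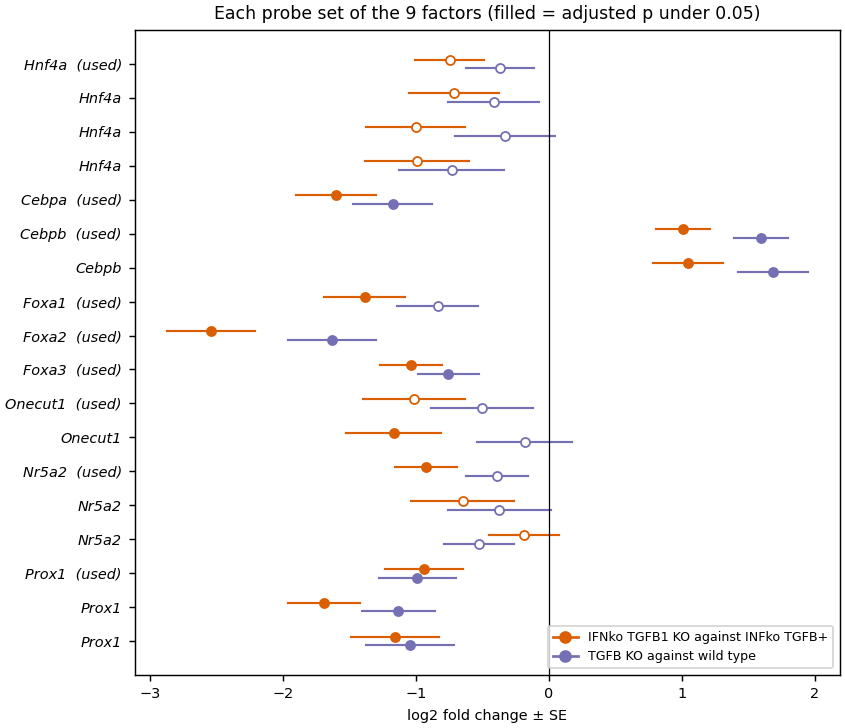
Log2 fold change ± SE of each of the 18 probe sets above the filter, for IFNko TGFB1 KO against INFko TGFB+ and for TGFB KO against wild type. The probe set marked as used stands for its gene in the other results, and filled points have an adjusted p under 0.05. Both Cebpb probe sets lie to the right of 0 and the others to the left.

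Whether the Tgfb1 effect differs with Ifng was tested as the difference of the effects. None of the 9 factors passed, with an adjusted p of 0.435 or more, none had an unadjusted p under 0.05, and 0.87% of all genes were called. The differences were negative for 8 of the 9 and their median was -0.51, beside 0.01 over all genes. The largest was that of Foxa2, -0.91 ± 0.46 (95% interval -1.93 to 0.11, adjusted p = 0.481), and it was -0.52 without IFNko TGFB1 KO 1. All 9 of the 95% intervals include 0. The effects past the threshold in one background and not in the other, those of Foxa1, Nr5a2 and Hnf4a, are therefore not shown to differ.

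Set directly against TGFB KO livers, IFNko TGFB1 KO livers had lower Cebpb, with a change of -0.86 ± 0.20 on the log2 scale (1.82-fold lower, adjusted p = 0.0273). It was the 1 factor of 9 that passed, where 5.36% of all genes did (2.54% higher and 2.82% lower). The 2 groups do not overlap for Cebpb, and its second probe set fell by 1.22 ± 0.26 (adjusted p = 0.0288 among probe sets). The call on the gene passed in 18 of 26 alternatives and was lost without any one of the TGFB KO arrays or without IFNko TGFB1 KO 1 (adjusted p = 0.0783). Foxa2 had -1.07 ± 0.33 (adjusted p = 0.0888) with no overlap of the groups, and -0.69 without IFNko TGFB1 KO 1. The other 7 factors had values between -0.84 and 0.18 with overlapping groups, and an adjusted p of 0.215 or more. This comparison shares its arrays with both Tgfb1 comparisons.

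On the probe set used for each gene, INFko TGFB+ and wild type livers did not part for any factor. They did part on the dim Nr5a2 probe set below the filter, at 12.6 to 18.2 against 22.8 to 30.5. None of the 9 passed (adjusted p of 0.91 or more, none at an unadjusted p under 0.05), where 0% of all genes passed in limma and 650 genes had an unadjusted p under 0.05. The log2 fold changes lay between -0.33 for Onecut1 and 0.13 for Prox1. The interval was narrowest for Cebpb, -0.70 to 0.15, and widest for Onecut1, -1.17 to 0.52. Ordered by level, INFko TGFB+ and wild type were thus the 2 highest groups for the 8 factors other than Cebpb. For Cebpb they were the 2 lowest. On the probe sets used, these 2 groups overlapped for each factor. For 7 of the 8, all but Prox1, the mean of IFNko TGFB1 KO was the lowest of the 4, and among the 9 factors its arrays were parted from those of TGFB KO for Cebpb and Foxa2 alone. The share of all genes whose groups part or overlap in this way is not given here, so these are descriptions of single genes.

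In all, 4 of the 9 factors (44.4%), namely Cebpa, Foxa2, Foxa3 and Prox1, fell in both Tgfb1 comparisons, and 962 of the 12760 genes tested (7.54%) did. These comparisons share no arrays, but the normalization and the estimate of spread were taken over all the arrays, so their calls are not independent. Cebpb rose in both, as did 956 genes (7.49%).

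The other factors of the network were read from 3 lists of 35 genes in all, of which 31 were tested. In TGFB KO against wild type 3 rose and 9 fell, with a median of -0.72. Between IFNko TGFB1 KO and INFko TGFB+ 1 rose and 15 fell, with a median of -0.83. Of all genes 12.2% rose and 11.9% fell in the first comparison and 12.7% rose and 13.1% fell in the second, so the share of the 31 that rose is near or below that of all genes. Under median centring 2 rose and 5 fell in the first comparison, and the 15 of the second became 10 without INFko TGFB+ 2 or INFko TGFB+ 3. In both comparisons 7 of the 31 fell (22.6%) and 1 rose.

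Of 13 liver-enriched factors tested, 3 fell in TGFB KO against wild type and 7 in IFNko TGFB1 KO against INFko TGFB+, and none rose. Hhex, a homeobox gene of the early liver bud, averaged 560 ± 72.3 in TGFB KO and 930 ± 59.0 in wild type livers, and 412 ± 36.3 in IFNko TGFB1 KO and 849 ± 108 in INFko TGFB+ livers (SD, n = 3 each). Its log2 fold changes were -0.72 ± 0.16 (adjusted p = 0.00697, lost under median centring) and -0.96 ± 0.16 (adjusted p = 0.00153). Creb3l3, a membrane-bound factor of the fasting and acute phase responses, fell by 0.92 ± 0.20 and 0.94 ± 0.20. Tbx3 had -1.39 ± 0.23 in IFNko TGFB1 KO against INFko TGFB+ (adjusted p = 0.00132). The 7 became 4 without INFko TGFB+ 2, INFko TGFB+ 3 or IFNko TGFB1 KO 2.

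Of 11 hepatocyte nuclear receptors, 4 fell in TGFB KO against wild type and 5 in IFNko TGFB1 KO against INFko TGFB+, and none rose. Ppara, the fatty acid receptor that drives fat oxidation in fasting, averaged 450 ± 45.6 in TGFB KO and 1524 ± 274 in wild type livers, and 434 ± 206 in IFNko TGFB1 KO and 1911 ± 366 in INFko TGFB+ livers. It fell in both, at -1.70 ± 0.32 (adjusted p = 0.00297) and -2.12 ± 0.32 (adjusted p = 0.000864). Nr1h4, the bile acid receptor FXR, fell by 0.94 ± 0.20 and 1.75 ± 0.20. Nr0b2, the corepressor SHP that FXR induces, fell in both, at -1.38 ± 0.26 and -1.15 ± 0.26. These 3 receptors passed in all 26 alternatives of both comparisons. The 5 became 3 without INFko TGFB+ 2 or INFko TGFB+ 3.

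Of 7 other C/EBP and PAR bZIP factors, 3 rose and 2 fell in TGFB KO against wild type, and 1 rose and 3 fell in IFNko TGFB1 KO against INFko TGFB+. Cebpd, an acute phase C/EBP, rose in both, by 1.80 ± 0.26 (adjusted p = 0.000569) and 1.86 ± 0.26 (adjusted p = 0.000576). Tef and Hlf, clock-controlled factors of metabolic and detoxification genes, fell in both, Tef by 0.97 ± 0.20 and 0.87 ± 0.20 and Hlf by 0.96 ± 0.26 and 1.47 ± 0.26, although Hlf lost the first call, leaving 1 that fell, without wild type 1, wild type 2 or TGFB KO 3. Ddit3, the stress-induced C/EBP homologous protein, averaged 115 ± 15.8 in IFNko TGFB1 KO livers and 380 ± 121 in TGFB KO livers, a log2 fold change of -1.71 ± 0.25 (adjusted p = 0.00222). With Nfil3, at -1.17 ± 0.28 (adjusted p = 0.0332, kept in 13 of 26 alternatives), it was 1 of 2 network factors that fell in IFNko TGFB1 KO against TGFB KO, a count of 4 without IFNko TGFB1 KO 3 and of 1 without TGFB KO 1, TGFB KO 2, INFko TGFB+ 1, INFko TGFB+ 3 or IFNko TGFB1 KO 1. In INFko TGFB+ against wild type none of the 31 passed.

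**Figure D5:**
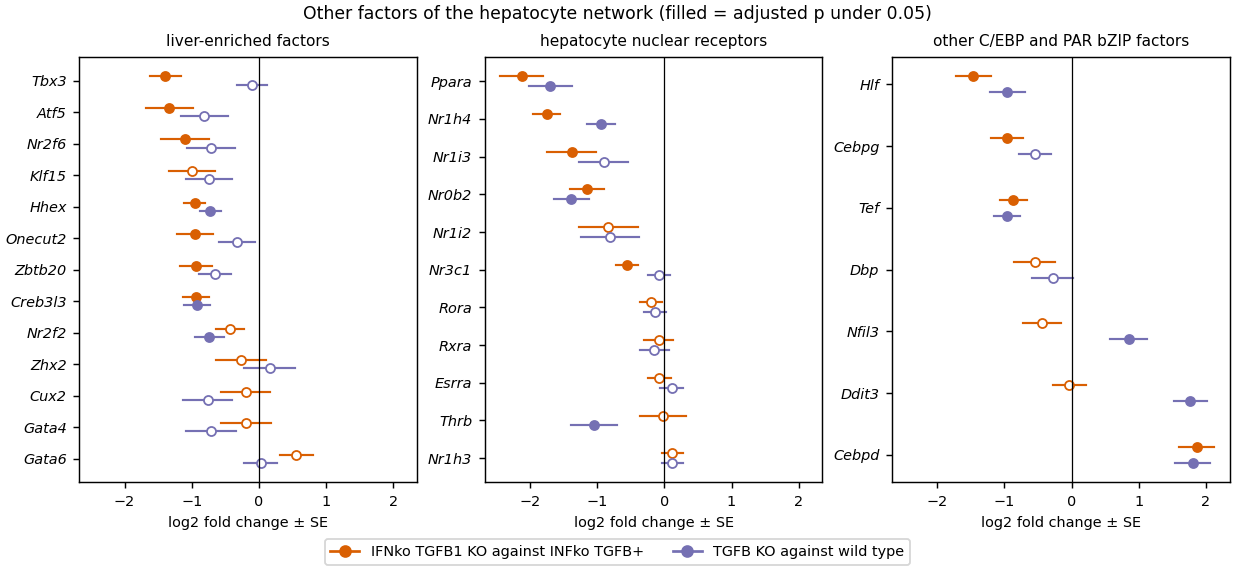
Log2 fold change ± SE of the 31 other network factors tested, in 3 panels by list, for IFNko TGFB1 KO against INFko TGFB+ and for TGFB KO against wild type. Filled points have an adjusted p under 0.05. Cebpd lies to the right of 0 in both comparisons, and Ppara has the lowest value of the 31 in both.

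Known targets of HNF4A, C/EBP alpha, the FOXA factors and NR5A2, and acute phase genes for C/EBP beta, changed unevenly. Targets of ONECUT1 and PROX1 were not read. Of 15 HNF4A targets, 1 rose and 3 fell in TGFB KO against wild type, and 1 rose and 7 fell in IFNko TGFB1 KO against INFko TGFB+. Beside the 12.2% of all genes that rose and 11.9% that fell, the first counts are near the background. Apoa4, a lipoprotein gene, was the one that rose, by 2.69 ± 0.27 (adjusted p = 3.78e-05) and 1.53 ± 0.27 (adjusted p = 0.002). The coagulation genes F9 and F12 fell in IFNko TGFB1 KO against INFko TGFB+, at log2 fold changes of -1.23 ± 0.23 and -1.37 ± 0.30, as did the apolipoprotein gene Apoc3, at -0.81 ± 0.18. The 3 that fell in TGFB KO against wild type became 7 without IFNko TGFB1 KO 2 and at most 1 without each wild type, TGFB KO or INFko TGFB+ array.

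Of 8 C/EBP alpha targets, 1 rose and 2 fell in TGFB KO against wild type, a count of at most 1 fall without each wild type, TGFB KO or INFko TGFB+ array. Of all genes 12.2% rose and 11.9% fell there, and 12.7% rose and 13.1% fell in IFNko TGFB1 KO against INFko TGFB+. The same shares belong beside the counts of target lists and cell markers that follow. The counts of the 8 C/EBP alpha targets in TGFB KO against wild type are near the background. Arg1, the urea cycle enzyme that rose, lost its call under deposited scaling, under median centring, where none of the 8 passed, and without wild type 1, wild type 2 or TGFB KO 3, and 2 rose without TGFB KO 1. In IFNko TGFB1 KO against INFko TGFB+ 3 fell, F9, Gys2 and Cps1, and 1 without any one INFko TGFB+ array. Of 8 FOXA targets, 0 passed in TGFB KO against wild type in limma (2 at an unadjusted p under 0.05), although 1 rose without wild type 2, wild type 3 or TGFB KO 1 and 2 fell without IFNko TGFB1 KO 2. The urea cycle gene Cps1 fell in IFNko TGFB1 KO against INFko TGFB+ by 0.65 ± 0.21 (adjusted p = 0.0409, kept in 15 of 26 alternatives and lost without any one INFko TGFB+ array, wild type 1, wild type 2, TGFB KO 1, TGFB KO 2 or IFNko TGFB1 KO 2). The median of the FOXA targets was 0.09 in the first comparison and -0.26 in the second, beside -0.76 to -2.54 for the FOXA genes that fell. Some of these targets, such as Alb and Ttr, are very bright, and quantile normalization can hide a fall that bright genes share. As deposited, the means of Alb, Ttr, Pck1, Slc2a2 and Abcc2 were lower in TGFB KO than in wild type livers. Those of Tat, Igfbp1 and Cps1 were higher.

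Of 6 NR5A2 targets, 3 fell in TGFB KO against wild type and 4 in IFNko TGFB1 KO against INFko TGFB+, with medians of -1.43 and -1.65. Abcg5 and Abcg8, which encode the partners of the sterol exporter into bile, fell in both comparisons, with log2 fold changes of -1.92 ± 0.41 and -1.52 ± 0.34 in the first and of -1.81 ± 0.41 and -1.83 ± 0.34 in the second. Cyp7a1, the rate-limiting enzyme of bile acid synthesis, averaged 263 ± 276 in IFNko TGFB1 KO and 1101 ± 169 in INFko TGFB+ livers (log2 fold change -2.60 ± 0.63, adjusted p = 0.0106). These genes answer to other receptors as well, and HNF4A shares Cyp7a1 and Cyp8b1 in the lists.

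Of 11 acute phase genes, which C/EBP beta and C/EBP delta are known to drive, 6 rose in TGFB KO against wild type, and 4 rose and 2 fell in IFNko TGFB1 KO against INFko TGFB+. The medians were 3.06 and 1.41. Lcn2, an iron-siderophore carrier, averaged 14060 ± 837 in TGFB KO and 814 ± 392 in wild type livers, and 8814 ± 2697 in IFNko TGFB1 KO and 748 ± 111 in INFko TGFB+ livers. Crp, a pentraxin, had -1.304 ± 0.25 in IFNko TGFB1 KO against INFko TGFB+ (adjusted p = 0.00282). Itih4 also fell there, and its call was lost without any one INFko TGFB+ array or without IFNko TGFB1 KO 2.

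Genes of other cells moved with the same groups. All 9 myeloid markers rose in TGFB KO against wild type and 8 in IFNko TGFB1 KO against INFko TGFB+, with summed signals of 28600 to 56200 in IFNko TGFB1 KO, 34800 to 44600 in TGFB KO, 9820 to 14400 in INFko TGFB+ and 8460 to 14000 in wild type livers. The 6 T cell markers rose in both, and their sums were 1800 to 3050 in IFNko TGFB1 KO, 698 to 840 in TGFB KO, 67.1 to 143 in INFko TGFB+ and 113 to 151 in wild type livers. Myeloid cells also express Cebpa and Cebpb, and the part of these cells in the Cebpb result was not tested. The summed signal of 9 hepatocyte markers was 121000 to 178000 in IFNko TGFB1 KO and 150000 to 180000 in TGFB KO livers, against 172000 to 209000 in INFko TGFB+ and 200000 to 206000 in wild type livers. Of these 9, 1 fell in TGFB KO against wild type (Serpinc1) and 2 in IFNko TGFB1 KO against INFko TGFB+ (Serpinc1 and Apoh), and their median log2 fold changes were 0 and -0.03. The first count was 0 without any one wild type array, TGFB KO 1 or TGFB KO 2, and the second was 0 without any one INFko TGFB+ array or IFNko TGFB1 KO 2. Quantile normalization gives the brightest probe sets of every array the same values, so the medians of such bright markers can hide a fall that they share. The mean summed signals of the 9 markers as deposited were 151000 in IFNko TGFB1 KO and 192000 in INFko TGFB+ livers, and 163000 in TGFB KO and 203000 in wild type livers. The part of a lower hepatocyte share in the falls was not tested.

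Cholangiocytes also express Onecut1, lymphatic endothelium Prox1, and pancreas Foxa2, Onecut1, Nr5a2 and Prox1. None of the 4 cholangiocyte markers tested passed in limma in either Tgfb1 comparison (1 and 0 at an unadjusted p under 0.05), although 1 rose in TGFB KO against wild type without IFNko TGFB1 KO 1 or IFNko TGFB1 KO 2, with sums over 6 markers of 199 to 682 in IFNko TGFB1 KO, 265 to 309 in TGFB KO, 208 to 224 in INFko TGFB+ and 180 to 248 in wild type livers, and 2 of the 6 below the filter. Of 7 endothelial and lymphatic markers 3 rose in TGFB KO against wild type and 2 in IFNko TGFB1 KO against INFko TGFB+, and none fell. The 3 became 1 without wild type 3 or TGFB KO 1, and the 2 became 1 without any one INFko TGFB+ array, IFNko TGFB1 KO 1 or IFNko TGFB1 KO 2. The part of lymphatic endothelium in the Prox1 result was not tested. Of 6 erythroid markers 1 rose in TGFB KO against wild type (Alas2) and none in IFNko TGFB1 KO against INFko TGFB+, where 0 had an unadjusted p under 0.05, and these counts were 2 and 1 without IFNko TGFB1 KO 1. Of 11 pancreas and intestine markers 7 were below the filter. Their sums were 423 to 1770 in IFNko TGFB1 KO, 909 to 1220 in TGFB KO, 3690 to 7370 in INFko TGFB+ and 3400 to 3850 in wild type livers. Most of this was Fabp2, which averaged 1014, 821.5, 3721 and 3417 in the same order of groups. The mean sums were 1280, 1090, 5090 and 3560, so they mainly follow this gene. The highest sum was that of INFko TGFB+ 2 with its exocrine signal. Without that array, IFNko TGFB1 KO against INFko TGFB+ gave -2.43 for Foxa2 (adjusted p = 0.00265), -1.03 for Onecut1 (adjusted p = 0.15), -0.90 for Nr5a2 (adjusted p = 0.0433) and -0.97 for Prox1 (adjusted p = 0.0749), so the call on Prox1 was lost, as was that on Hnf4a (-0.68, adjusted p = 0.146). Both were also lost without INFko TGFB+ 1 or INFko TGFB+ 3. The part of pancreas RNA in these values was not tested. Fabp2, the intestinal fatty acid binding protein, fell in both Tgfb1 comparisons, by 2.00 ± 0.51 and 1.99 ± 0.51, the first lost without TGFB KO 3. Of 7 stellate cell markers 2 fell in TGFB KO against wild type, 1 rose in IFNko TGFB1 KO against INFko TGFB+ (2 without IFNko TGFB1 KO 1 and 4 without IFNko TGFB1 KO 3), and 4 rose in IFNko TGFB1 KO against TGFB KO, a count that was 2 without any one array other than IFNko TGFB1 KO 3.

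Genes with the most similar course over the 12 arrays were found by the root mean square difference of gene-centred log2 values, which takes in level changes of every array and reads nothing of function. For Hnf4a these were Itih4, Apoh and Pgm1, at 0.09 to 0.10, where the median over all genes was 0.56. Cebpa lay nearest to Adipor2, Dcxr and Tst (0.19 to 0.23), and Cebpb to Tlr4, Cttnbp2nl and Gsdmd (0.18 to 0.22). Foxa1 was closest to Fitm2, Rassf7 and Adck5, and Foxa3 to Abca3, Acadvl and Cbs. Foxa2 lay nearest to Prox1os, Kank1 and Acad10, but less closely (0.34 to 0.38, where the median was 1.21). For Onecut1 the nearest were Zfp397, Nr2f6 and Mlycd, for Nr5a2 Shroom2, Lrp6 and Plcb1, and for Prox1 Rabggta, Ctnnbl1 and Aox1. Prox1os, the antisense neighbour of Prox1, averaged 27.1 ± 18.1 in IFNko TGFB1 KO and 169 ± 12.4 in INFko TGFB+ livers, and 36.3 ± 14.8 in TGFB KO and 152 ± 29.6 in wild type livers. It fell in both, at -2.34 on the log2 scale (adjusted p = 0.00119) and -1.70 (adjusted p = 0.00669, lost with a pseudocount of 1).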

How the data were processed

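Total liver RNA was labelled and hybridised to 1 array per mouse, per the labels' protocols. The deposited values are signal intensity per probe set on a linear scale, and from the values each array has the same mean of 150 once its lowest and highest 2 percent are left out; the sources used here do not give the signal algorithm, and detection calls were not analysed here. Of 45101 probe sets 34958 carry a single symbol, 932 several and 9211 none; RefSeq GRCm38.p6 gave the current symbol for 34754 by gene identifier, and 64 control probe sets were left out. The deposited intensities were turned into log2(signal + 16) and quantile normalized over the 12 arrays. A gene is its single-symbol probe set with the highest mean, kept at or above the 40th percentile (a log2 level of 5.25).

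Tests used limma 3.58.1 in R 4.3.3 (lmFit on the 12 arrays with 1 mean for each group, then eBayes, with 8 residual and 3.44 prior degrees of freedom), two-sided, with Benjamini-Hochberg adjustment over 12760 genes and a threshold of 0.05. Adjusted p-values in the text are from limma unless said otherwise, and the number of arrays limits their precision. Values after ± are SE for log2 fold changes and SD for signals. The procedure was tested on simulated data. The first and second of the 5 contrasts share no arrays. Nor do IFNko TGFB1 KO against TGFB KO and INFko TGFB+ against wild type. All other pairs of contrasts share arrays, and all 5 share the normalization and the estimate of spread. The 9 genes, the gene lists and the rule for named genes were chosen with earlier results of these data known. The rule names the 9 genes and their probe sets, Tgfb1 and Ifng, up to 5 called genes per network list and up to 3 per target or cell list in each comparison by smallest p, and the 3 nearest genes of each factor; genes named to spell out counts of 5 or fewer, the exocrine genes and Prox1os were picked after their values were seen. One INFko TGFB+ label lacks a replicate number, taken here as 1. Alternatives changed the scaling, pseudocount, filter, probe set rule, arrays fitted, array weights, block, sex covariate and test statistic, and left out each array. Genes with no single-symbol probe set were not analysed here. Figures were drawn with matplotlib 3.10.9 in Python 3.11.15.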

Additional observations from a re-analysis of the deposited data

Results flagged for a closer look

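The test of the difference between the Tgfb1 effects in Ifng-deficient and Ifng-intact mice passed for 4 genes of the lists and for none of the 9 factors. Lrat, a retinol esterifying enzyme of stellate cells, had a difference of 2.19 ± 0.25 on the log2 scale (adjusted p = 0.00204, limma), with means of 705 in IFNko TGFB1 KO, 171 in TGFB KO, 345 in INFko TGFB+ and 384 in wild type livers. Reln, a secreted glycoprotein of stellate cells, had 2.31 ± 0.29 (adjusted p = 0.00357), with means of 3163, 805, 3066 and 3397 in the same order of groups, and the difference was 1.28 with the mean of all probe sets (adjusted p = 0.283), the 1 of 25 alternatives that lost it. Ddit3, the C/EBP homologous protein, had -1.80 ± 0.35 (adjusted p = 0.0381), with means of 115, 380, 97.6 and 91.3, and passed in 9 of 25 alternatives. Cd3g, a subunit of the T cell receptor complex, had 2.01 ± 0.40 (adjusted p = 0.0416), with means of 643, 218, 22.2 and 38.2, and also passed in 9 of 25.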

How the results depend on the processing

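Each of the 9 factors was refitted under up to 26 alternatives. In TGFB KO against wild type 214 of 234 such values kept direction and side of the threshold, 12 lost the call and 8 gained one, and in IFNko TGFB1 KO against INFko TGFB+ 204 of 234 did, 27 lost it and 3 gained one. With 1 array left out, between 3 and 6 factors passed in TGFB KO against wild type, between 6 and 9 in IFNko TGFB1 KO against INFko TGFB+ and between 0 and 1 in IFNko TGFB1 KO against TGFB KO, while the genes called ranged from 46 to 160 for the difference of effects, from 327 to 730 between IFNko TGFB1 KO and TGFB KO livers and from 0 to 2 for INFko TGFB+ against wild type. The difference of effects called 57 genes with a pseudocount of 1, 212 with a pseudocount of 64 and 64 with an ordinary t statistic, against 111. IFNko TGFB1 KO against TGFB KO called 213 genes with only these groups fitted and 419 with array IFNko TGFB1 KO 1 left out before normalization (an alternative chosen after seeing the data), against 684, and 0 factors in both settings, with no filter and with array weights. INFko TGFB+ against wild type called 1 gene with an ordinary t statistic. Median centring split the calls into 1448 higher and 893 lower, 988 and 1864, 9 and 101, and 100 and 387 in the Tgfb1 effect with Ifng, that without Ifng, their difference and the Ifng effect without Tgfb1, against 1553 and 1524, 1618 and 1673, 31 and 80, and 324 and 360, and moved the median of all genes to -0.15, -0.25, -0.14 and 0.10 in IFNko TGFB1 KO against INFko TGFB+, the difference, IFNko TGFB1 KO against TGFB KO and INFko TGFB+ against wild type. Signs turned only for values that were not called. The Prox1 difference of effects was -0.18 under median centring, -0.21 with the mean of all probe sets, -0.045 without IFNko TGFB1 KO 1 before normalization, and between -0.291 and 0.367 with 1 array left out. In IFNko TGFB1 KO against TGFB KO, Prox1 was -0.20 with the mean of all probe sets and Hnf4a between -0.534 and 0.023 with 1 array left out, positive without IFNko TGFB1 KO 2. In INFko TGFB+ against wild type, leaving out 1 array gave -0.112 to 0.097 for Foxa1 (negative without wild type 1 or INFko TGFB+ 2), -0.017 to 0.193 for Nr5a2 (negative without wild type 1), -0.351 to 0.065 for Cebpa (positive without wild type 2), -0.287 to 0.062 for Foxa2 (positive without wild type 2 or INFko TGFB+ 3) and -0.188 to 0.47 for Prox1 (negative without wild type 2). The causes were not tested. Whether the replicate numbers pair the samples was not settled. Correlations of same-numbered arrays lay between -0.08 and 0.34, but differently numbered arrays were not set beside them. With a replicate block 5, 7, 0, 1 and 0 factors passed in the 5 comparisons in the order of the report, and Hnf4a lost its call (adjusted p = 0.0551). In the 2 Tgfb1 comparisons 3051 and 3277 genes were called with that block. Foxa1, Onecut1 and the dim groups of Foxa2 lie nearest to background, where the added 16 shrinks fold changes.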
